A study of Ovis aries with 18 samples.

Results

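Windows of 200 bp that were rich in CpG cytosines and methylated in the sperm of every ram were rare: 33 of the 28717 CpG-dense windows on the numbered chromosomes qualified (0.115%). A window was called dense when it held 20 or more listed cytosines, with the strands of a CpG site counted apart. It was chosen when its methylation level was 70% or more in each of 6 rams, where the level is the share of methylated reads among all reads over its cytosines. The windows were thus chosen by the levels, which are given as a description. The rule treated all rams alike whatever their diet, and the diet differences are the only values tested below. The 33 windows held 756 of the 1850625 listed cytosines and lay on 16 of the 26 numbered chromosomes.

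The sperm came from Polypay rams on 2 diets, with the ram as the replicate. Control rams Ram410, Ram423 and Ram444 received a basal diet. The methionine-treated group (Ram424, Ram498 and Ram511) received that diet with 1.5 g of rumen-protected methionine on top, a form of the amino acid made to pass the rumen. Feeding lasted 77 days from a mean age of 88 days, and semen was collected 1 month after it ended. The DNA was examined by reduced representation bisulfite sequencing (RRBS), which enriches CpG-rich fragments and reads unmethylated cytosines as thymine, and the 6 libraries shared 1 lane. Every listed cytosine had at least 10 reads in each ram, so that a dense window is one with many covered cytosines, and CpG-rich sequence with fewer reads is not counted. Positions are in the Oar_rambouillet_v1.0 build. Genes, repeats and sequence at the windows were not analysed here, nor were imprinted genes, whose levels tell sperm from somatic cells.

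In mammals, CpG islands are stretches where CpG sites remain frequent, often at the starts of genes, and most of them carry no methylation in sperm. Most CpG sites elsewhere in the sperm genome are methylated. Islands known to be methylated in male germ cells include the control regions of paternally imprinted genes, some islands inside gene bodies and islands that belong to silenced repeats.

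The share of methylated windows was lower where listed cytosines were more numerous. Of the windows with 3 to 4 listed cytosines, 13912 of 32314 (43.1%) were at 70% or more in each ram. The share was 21.3% with 5 to 9 cytosines, 4.64% with 10 to 14 and 1.25% with 15 to 19 (192 of 15305 windows). It was 0.257% with 20 to 24 cytosines, where 28 of the 33 windows fell, and 0.0280% with 25 to 29, where 2 fell. Of the 10685 windows with 30 or more cytosines, 3 (0.0281%) were methylated. Windows at 10% or less in each ram made up 31.2% of those with 3 to 4 cytosines and 97.5% of those with 30 or more. Among all dense windows, 27292 (95.04%) were unmethylated in this sense, and 1392 (4.85%) belonged to neither class. The dense windows outside the chosen set were mostly below 70% in every ram (28586), while 48 reached it in exactly 1 ram and 8 in exactly 5. These shares hold for listed cytosines only, and listing needed 10 reads in each ram. Ram498 had a median of 12.8 reads per cytosine in the 33 windows and 12 in methylated windows of 3 to 19 cytosines. In unmethylated dense windows it had 44.9. The part of this difference in depth in the shares was not tested.

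**Figure D1:**
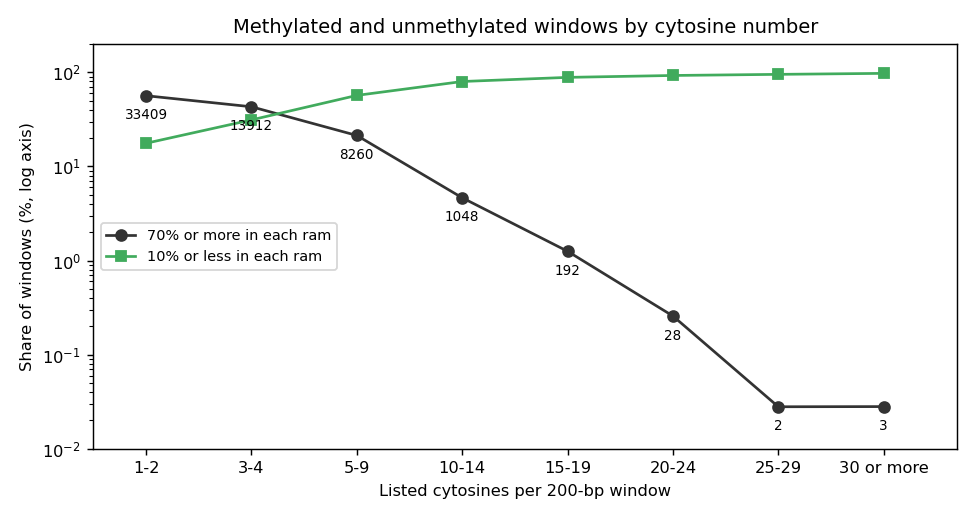
Share of 200-bp windows on the numbered chromosomes (log axis, %) that were at 70% or more in each ram or at 10% or less in each ram, by the number of listed cytosines in the window. The methylated share drops from 56.4% with 1 to 2 cytosines to 0.0281% with 30 or more.

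The richest methylated window was chr3:870201-870400, with 40 cytosines at 26 CpG sites. It adjoined chr3:870001-870200, which had 27 cytosines at 21 sites, and no other pair of methylated dense windows touched. Next in number of cytosines were chr10:34200201-34200400 with 33, chr17:81697201-81697400 with 30 and chr3:241047001-241047200 with 25. The remaining 28 windows had 20 to 24 cytosines, and 10 of them had exactly 20. The median was 22 cytosines, compared with 27 in unmethylated dense windows. Over the 33 windows there were 457 CpG sites, of which 299 were listed on both strands, with a median of 13 sites per window (10 to 26). The listed sites of a window spanned a median of 151 bp (62 to 196 bp). The most compact were chr6:128941001-128941200, with 10 sites within 62 bp, and chr8:97325801-97326000, with 11 sites within 62 bp.

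The levels fell into a tight set and a looser set. In 14 of the 33 windows every ram was at 97% or more, and the same 14 were those at 95% or more, so that no window had its lowest ram between these values. The highest minimum was that of chr8:97325801-97326000, where control rams Ram410, Ram423 and Ram444 were at 99.1%, 99.3% and 99.5% and Ram424, Ram498 and Ram511, the methionine-treated rams, at 98.6%, 99.1% and 98.9%. At chr1:385001-385200 the levels in the same order were 98.3%, 98.4% and 98.7% in control rams and 98.6%, 99.6% and 99.0% in methionine-treated rams. At chr24:1751201-1751400 they were 98.7%, 98.4% and 98.6% in control rams and 98.2%, 98.6% and 98.5% in methionine-treated rams. The diets overlapped in all 3 windows. Across the 14 windows, the SD between the 6 rams had a median of 0.514 points (0.191 to 0.874), and the limit of 97% itself holds it small.

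In the other 19 windows the mean level over rams ran from 84.8% to 97.01%, and the SD between rams had a median of 4.92 points (1.09 to 7.64). The split by lowest level leaves these windows more room to vary, so that the contrast between the sets is a description of the split. The largest SD (7.64 points) was at chr20:48640401-48640600, where control rams were at 85.9%, 89.5% and 93.7% and methionine-treated rams at 86.1%, 71.3% and 88.3%. Ram498 was the low ram there. At chr19:50637001-50637200 the levels were 85.6%, 96.5% and 97% in control rams and 89.1%, 89.3% and 76.8% in methionine-treated rams. At chr19:61520001-61520200 they were 93.3%, 98.2% and 99.4% in control rams and 93.5%, 95.4% and 79.8% in methionine-treated rams. Ram511 was the lowest ram in both. The median SD over all 33 windows was 1.98 points, compared with 1.74 in sparser methylated windows (3 to 19 cytosines), 0.284 in unmethylated dense windows and 4.18 in the other dense windows. These SDs include counting error, which is larger in the sparser windows, with a median of 4 cytosines. The variance between rams relative to that of independent reads had a median of 3.30 in the 33 windows. It was 1.22 in sparser methylated windows, 1.22 in unmethylated dense windows and 10.7 in the other dense windows. Cytosines of a window often share reads, which can raise this ratio.

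**Figure D2:**
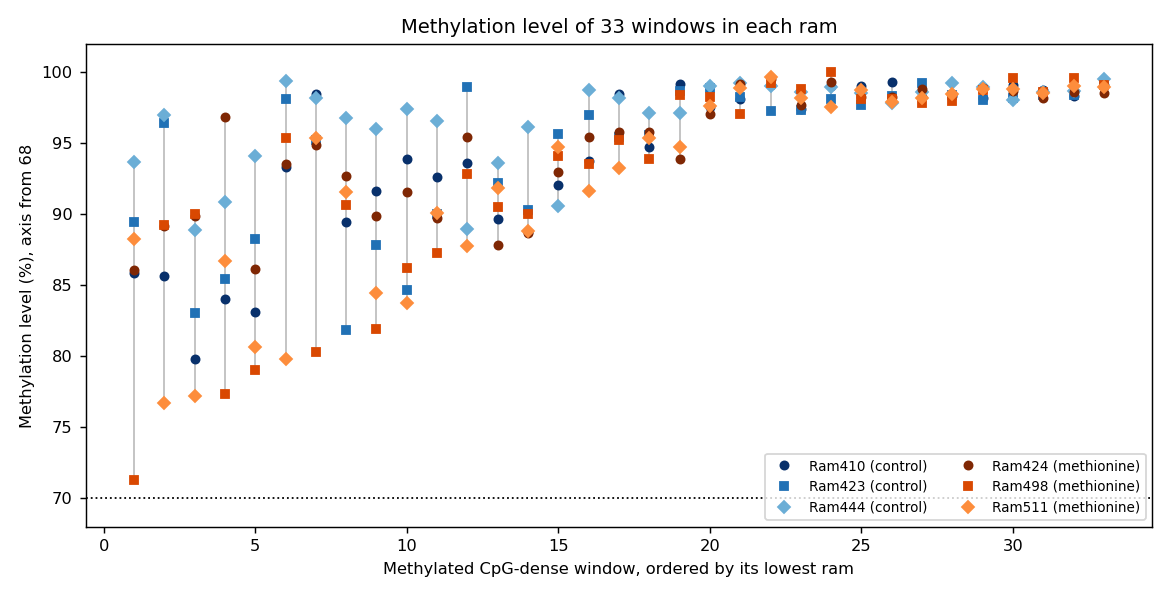
Methylation level (%, axis from 68) of the 33 windows in each ram, control and methionine-treated. The 14 tight windows sit at 97% or more in all 6 rams, and the lowest single value is 71.3% in Ram498.

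Few windows lay close to the threshold of 70%. Just inside it were chr20:48640401-48640600, with its lowest ram at 71.3%, and chr19:50637001-50637200, with its lowest at 76.8%. Just outside were chr17:82282601-82282800, at 68.6% in Ram511 and 76.7% to 85.02% in the other rams, and chr24:40203001-40203200, at 68.5% in Ram498 and 85.3% to 92.9% in the others. In all, 9 dense windows had their lowest ram between 60% and 70%. On the other side of the rule, 17 methylated windows had 19 cytosines.

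Within the windows, most cytosines were highly methylated. Of the 756 cytosines, 631 (83.5%) were at 90% or more in pooled reads, 442 were at 90% or more in each ram, and 72 were at 100% in every ram. There were 15 below 70% and 5 below 50% in pooled reads. The strands of a CpG site differed by a median of 1.39 points over the 299 sites listed on both strands, and by over 10 points at 5 of them. The largest gap was 17.0 points, at chr14:58921957.

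Single sites stood below their neighbours in 9 windows. Of the sites listed on both strands, 11 were at least 15 points under the median cytosine of their window in pooled reads. Among these sites listed on both strands, 10 differed by 40 points or more between rams. Both sets were picked out after their values were seen. At chr1:201711 the control rams were at 46.0%, 100% and 0% and the methionine-treated rams at 97.6%, 63.0% and 0%, in the order above. No methylated read was seen in Ram444 (0 of 49 reads, which allows a level of up to 6.12%) or in Ram511 (0 of 25, up to 12%). At chr21:45351851 the levels were 53.3%, 98.2% and 2.17% in control rams and 53.7%, 55.6% and 92.9% in methionine-treated rams. Rams were thus spread over most of the scale at both sites, and the diets overlapped.

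At chr19:7078920 every ram was low, with 29.2%, 37.3% and 59.2% in control rams and 0%, 34.1% and 51.3% in methionine-treated rams (Ram424 had 0 of 44 reads, up to 6.82%). The window chr21:52944401-52944600 held 3 of the 11 sites. At chr21:52944454 the levels were 0%, 37.1% and 60.4% in control rams (Ram410 had 0 of 176 reads, up to 1.70%) and 53.2%, 75.0% and 6.94% in methionine-treated rams. At chr21:52944469, 15 bp away, Ram423 was at 45.9% and Ram511 at 25%, and the other 4 rams were at 98.3% to 100%. Ram410 was the lowest ram at the first of these sites and Ram511 at the second. The counts of methylated and unmethylated reads used here do not separate an unmethylated cytosine from a C-to-T change in the DNA. The part of such changes in these values was not tested.

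**Figure D3:**
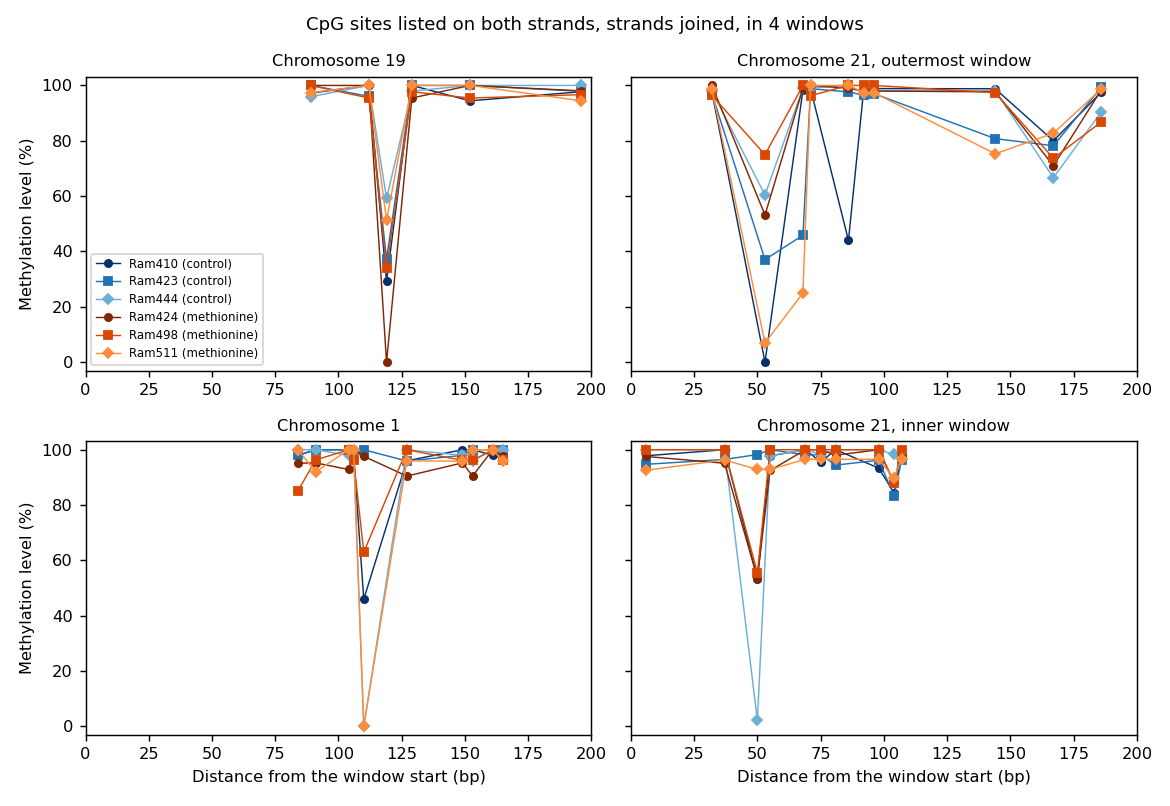
Methylation level (%) of each CpG site listed on both strands in 4 of the windows (the 4 with the lowest sites relative to their median), by distance in bp from the window start, with a line per ram. Single sites fall far below their neighbours, such as the site 110 bp into the chromosome 1 window, at 0% in Ram444 and Ram511 and 100% in Ram423.

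The comparison of diets asked whether methionine in the ram's feed was accompanied by a change in sperm methylation. No window passed the thresholds for a diet difference, which the rule itself limits in size. The mean level over the 33 windows was 94.2%, 94.6% and 96.7% in control rams (95.2% ± 1.39, SD, n = 3) and 94.7%, 92.7% and 92.5% in methionine-treated rams (93.3% ± 1.23, SD, n = 3). The difference, methionine-treated minus control, was -1.86 points, and the diets overlapped, since Ram424 lay above Ram410 and Ram423. No p is given for a mean over windows that were chosen with results of these data known. Over the 19 looser windows, which the split leaves more room to differ, it was -3.25 points, and over the 4 windows with any cytosine at 20 or more reads in each ram it was -0.741 points. The difference ran from -7.98 to 2.29 points over single windows, with a median of -0.439, and was under 1 point in either direction in 15. The mean was lower in methionine-treated rams in 23 windows and higher in 10, while it was lower in 50% of all 141939 windows tested and in 58.6% of sparser methylated windows.

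Ram444 was the highest ram in 17 of the 33 windows (51.5%), 12 of them among the looser 19. It was highest in 20.9% of the 15007 sparser methylated windows with a single highest ram. Ram498 was lowest in 10 windows (30.3%) and Ram511 in 8 (24.2%), and in sparser methylated windows with a single lowest ram they were lowest in 20% and 22.3%. Without Ram444, the difference over the 33 windows was -1.07 points.

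Each window was tested by logistic regression of its read counts on diet, with an overdispersion term for spread between rams beyond that of independent reads, and p-values were adjusted by Benjamini-Hochberg (q) over all windows with 3 or more cytosines. None of the 33 had q under 0.01 and over 20 points, compared with 0.0592% of all windows tested (84 of 141939) and 0.0128% of sparser methylated windows. The rule holds every ram between 70% and 100%, so that a difference could reach at most 30 points, and the largest in pooled reads was 8.46 points in size. None had q under 0.01 alone, against 0.151% of all windows and 0.325% of sparser methylated windows. At shares as small as these, finding none among 33 windows says little. Without the overdispersion term, 11 of the 33 had q under 0.01, and so did 7637 of all 141939 windows. An unadjusted p under 0.05 was found in 2 windows, against 7.13% of all windows and 8.85% of sparser methylated windows. This count was 6 without Ram410, 5 without Ram423, 3 without Ram444 or Ram424, 2 without Ram498 and 0 without Ram511. The share of all windows at this p was not counted for these fits. Calls over all the data moved too: 215 windows had q under 0.01 with 6 rams, and 273 (without Ram511) to 1101 (without Ram424) with a ram left out. With 3 rams per diet, the exact permutation test of a single window cannot give a p under 0.1.

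The smallest p was at chr17:60256801-60257000. Control rams were at 99.2%, 98.7% and 97.1% and methionine-treated rams at 93.9%, 98.4% and 94.8%. The pooled difference was -3.14 points (p = 0.0134 and Benjamini-Hochberg q = 0.498 in the regression, exact permutation p = 0.2). Ram498 lay within the control range. The next was chr3:870201-870400, the window with the most cytosines, where control rams were at 98.5%, 95.4% and 98.2% and methionine-treated rams at 95.8%, 95.2% and 93.3% (-2.81 points, q = 0.674). Without Ram423 it had q = 0.00290 at -3.70 points, short of 20 points. The difference of the greatest size among the 33, -8.46 points at chr19:61520001-61520200, had q = 0.744, and Ram511 was the low ram there. The difference at chr19:52468201-52468400, -5.94 points, had q = 0.762, with control rams at 91.6%, 87.8% and 96.0% and methionine-treated rams at 89.9%, 81.9% and 84.4%.

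The diets did not overlap in 1 window, chr3:240822401-240822600. Control rams were at 99.1%, 97.3% and 99.0% (98.5% ± 1.04, SD, n = 3) and methionine-treated rams at 99.5%, 99.3% and 99.7% (99.5% ± 0.205, SD, n = 3). Its exact permutation p was 0.1, the smallest that this test can give. In this direction 4.44% of all windows and 3.54% of sparser methylated windows did not overlap. No window was lower in every methionine-treated ram than in every control ram, against 4.49% of all windows and 6.84% of sparser methylated windows.

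No single cytosine in the 33 windows had q under 0.01 (0.0189% of all cytosines). The same held with a difference of over 20 points added, which was met by 0.0184% of all cytosines and 0.0604% of those at a pooled level of 70% or more. At shares this small, finding none among 756 cytosines says little. Of the 756 cytosines, 57 had an unadjusted p under 0.05 (7.54%), against 2.94% of all cytosines and 6.69% of those at 70% or more. The diets did not overlap at 40 cytosines (5.29%), against 2.43% of all cytosines and 4.79% of those at 70% or more. Of the 40, 32 were lower in methionine-treated rams, and the directions were not counted over all cytosines. Among sparser methylated windows, 6.84% did not overlap and were lower in methionine-treated rams, and 3.54% were higher. Over all windows tested these shares were 4.49% and 4.44%. Cytosines of a window often share reads, so that the 40 are not independent. The smallest p was at chr19:61520184 on the plus strand, where all 3 control rams were at 100% and methionine-treated rams at 95%, 95% and 83.3% (-9.38 points, q = 0.638 in the regression across all cytosines). At chr22:54843341 the plus strand was at 100% in control rams and at 90.9%, 81.8% and 90.9% in methionine-treated rams (q = 0.841). Each of these methionine values rested on 11 reads. Without Ram444, 1 of the 756 cytosines passed both thresholds, compared with 643 of all 1850625 cytosines. It was chr21:52944409 on the plus strand (-62.1 points, q = 5.84e-07 in the regression). Control rams were at 95.7%, 92.3% and 28.6% there and methionine-treated rams at 38.9%, 35.7% and 19.05%.

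The balance of reads between methylated and unmethylated windows differed between rams. It ran partly with diet, and lay furthest from the control rams in the methionine-treated rams Ram498 and Ram511. The median reads per cytosine in the 33 windows were 23.0, 24.6 and 22.8 in control rams and 19.6, 12.8 and 18.3 in methionine-treated rams. In unmethylated dense windows they were 23.4, 26.5 and 23.6 in control rams and 23.0, 44.9 and 34.9 in methionine-treated rams. The ratio of the first to the second was 0.981, 0.928 and 0.965 in control rams (0.958 ± 0.0273, SD, n = 3) and 0.851, 0.285 and 0.524 in methionine-treated rams (0.554 ± 0.284, SD, n = 3), and the diets did not overlap. In sparser methylated windows the ratio was 0.943 to 1.02 in control rams and 0.267 to 0.957 in methionine-treated rams. The diets overlapped there, since Ram424 (0.957) lay above Ram423 (0.943).

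Ram498 had the fewest reads in 29 of the 33 windows. It had the fewest in 0.205% of unmethylated dense windows and the most in 92.2% of them. At 330 of the 756 cytosines it had 10 to 12 reads, next to the minimum for listing. The part of this read balance in the levels, in the diet differences and in which windows were listed was not tested. The 95% Wilson interval of a level in 1 ram was 1.19 to 11.3 points wide, with a median of 3.19 points, and covers counting error only. Total coverage was 44504409 to 75603721 reads over all listed cytosines and 10234 to 20103 over those of the 33 windows, with a read counted at each cytosine it covers.

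**Figure D4:**
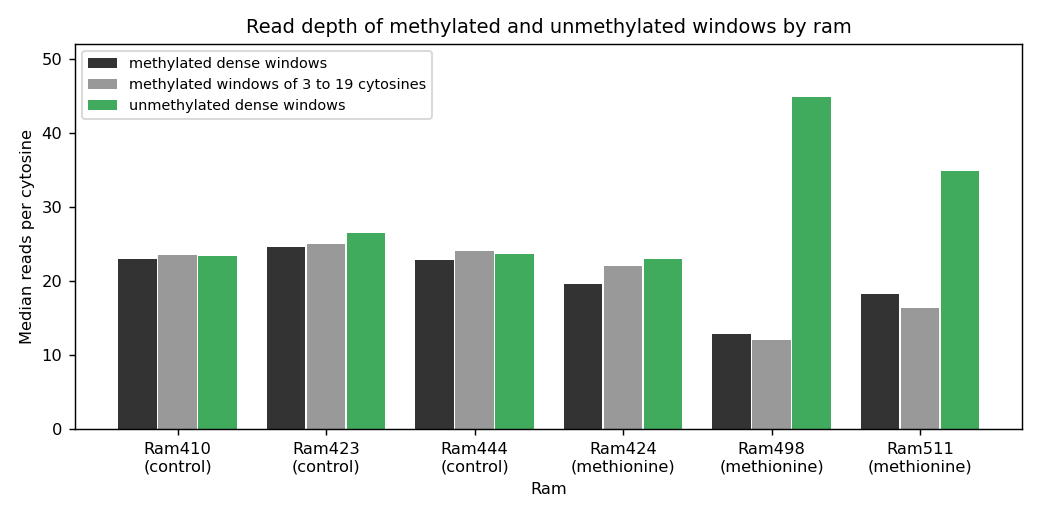
Median reads per cytosine by ram in methylated dense windows, methylated windows of 3 to 19 cytosines and unmethylated dense windows (bars from 0). Ram498 has 12.8 reads in the methylated dense windows and 44.9 in the unmethylated ones, while in each control ram the bars lie between 22.8 and 26.5.

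The window with the highest coverage was chr21:52944401-52944600, with 84.2, 80.4 and 59.3 reads per cytosine in control rams and 52.5, 15.5 and 37.1 in methionine-treated rams. Its levels were 79.8%, 83.1% and 88.9% in control rams and 89.9%, 90.1% and 77.2% in methionine-treated rams, and the diets overlapped. It was also the last listed window of its chromosome. The next highest was chr20:55125201-55125400, with 37.5, 44.9 and 37.5 reads per cytosine in control rams and 34.0, 14.9 and 13.0 in methionine-treated rams.

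Many of the methylated dense windows lay near the ends of chromosomes. Of the 33, 10 (30.3%) were within 1 Mb of the last listed cytosine, compared with 5.56% of unmethylated dense windows, 16.2% of the other dense windows and 11.7% of sparser methylated windows. Within 1 Mb of either end there were 14 (42.4%), compared with 7.45%, 20.1% and 14.8% in the same order. The gap to the other dense windows was smaller at 5 Mb. The last 5 Mb held 42.4% of the 33 and 42.03% of the other dense windows, and the 5 Mb at either end held 60.6% and 53.6%. Chromosomes 3, 17 and 19 held 4 windows each. On chromosome 17, chr17:81697201-81697400, chr17:82165801-82166000 and chr17:82433801-82434000 lay 887, 418 and 150.3 kb from the last listed cytosine. On chromosome 3, the adjoining pair lay 867 kb from the first listed cytosine, and 2 other windows lay 312 and 87.3 kb from the last. These shares are a description, since windows close together share their surroundings.

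Methylation mostly continued into the surroundings. Within 1 kb, 31 of the 33 windows had listed neighbours, 81 distinct windows in all without the methylated dense windows themselves. Of these, 63 were at 70% or more in each ram, 8 at 10% or less and 10 neither, and for 22 windows all listed neighbours were at 70% or more. Many neighbours held few cytosines, and such windows were often methylated anywhere. The share at 70% or more was 56.4% with 1 to 2 cytosines, 43.1% with 3 to 4 and 21.3% with 5 to 9. Neighbours within 1 kb were not counted for other windows. The adjoining pair on chromosome 3 had neighbours at mean levels of 89.4% to 97.7%, and those of chr17:81697201-81697400 were at 97.8% to 99.0%. No neighbour was listed for chr10:34200201-34200400 or chr14:58921801-58922000.

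For 5 windows an unmethylated neighbour was listed within 1 kb. Beside chr3:241047001-241047200, the mean level over rams in successive windows, starting 1000 bp before it, was 2.76%, 3.60%, 12.7%, 25.6% and 69.3%, and it was 85.2% in the window itself. Its own levels were 83.1%, 88.2% and 94.1% in control rams and 86.1%, 79.0% and 80.6% in methionine-treated rams, with a pooled diet difference of -6.08 points (q = 0.840). The neighbour 1000 bp before chr19:52468201-52468400 was at 1.25%, against 88.6% in the window. Over the 33 windows, the nearest unmethylated dense window was a median of 9.8 kb away (0.6 to 77.8 kb). It lay within 10 kb for 17 of them (51.5%), compared with 45.8% of the other dense windows and 25.1% of sparser methylated windows.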

How the data were processed

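Sperm DNA of 6 rams was sequenced by RRBS as 100-base single reads. The authors trimmed the reads, used Bismark with Bowtie2 for alignment to the Oar_rambouillet_v1.0 build, removed duplicates by molecular barcode, and deposited counts of methylated and unmethylated reads per CpG cytosine and strand, for cytosines with 10 or more reads in each ram. The submitters' processing notes also name Trim Galore and bcl2fastq. The deposited embryo gene counts were not used, because no annotation of this build was at hand to place genes at the windows.

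Counts were summed in non-overlapping 200-bp windows (Python 3.11.15, numpy 2.4.6, pandas 2.3.3, scipy 1.17.1). Windows with 3 or more cytosines, and single cytosines, were tested by logistic regression of counts on diet, with overdispersion from Pearson residuals (at least 1) and a chi-square test. P-values were adjusted by Benjamini-Hochberg over all windows or all cytosines. Calls needed q under 0.01 and over 20 points in pooled reads. The ages of single rams, a covariate in the study's model, were not used here. Single windows were also compared by a two-sided exact permutation test over 20 assignments. Scripts were tested on simulated data. Alternatives were an F test, no overdispersion term, limma 3.58.1 on logit levels (pseudocount 0.5), other thresholds and minimum reads, and each ram left out in turn.

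Named windows were those with the most cytosines, the highest and lowest minimum levels, the largest SD, the highest coverage, the smallest diet p, those that adjoined, and those nearest the threshold. The cytosines named for diet were chosen from the 5 with the smallest p. The windows and this rule were chosen with earlier results of these data known. Reads of neighbouring cytosines are often the same reads, so that intervals over a window are too narrow.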

Additional observations from a re-analysis of the deposited data

How the results depend on the processing

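The number of methylated dense windows depended on the rule. It was 33 as reported, 42 at a threshold of 60%, 27 at 80% and 19 at 90%, 225 with a minimum of 15 cytosines and 5 with 25 (median 17 CpG sites per window, against 13). It was 16 when 10 or more sites had to be listed on both strands. All of these were among the 33, which the rule nearly ensures, since 10 such sites hold 20 cytosines. The number was 0 when each cytosine needed 20 reads in each ram. Leaving out a ram gave 33 to 39, the highest without Ram498. The number could not fall in these fits, since the rule asks for the level in each ram and the listing of cytosines was kept. The diet difference over the windows, -1.86 points, was -3.25 without the 14 windows at 97% or more, an alternative chosen after seeing the data. It was -1.24 at a threshold of 80% and -0.741 at 20 reads in each ram, where 4 windows and 18 cytosines were left. It ran from -2.57 to -1.07 with a ram left out, lowest without Ram424 and nearest 0 without Ram444.

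No window passed both diet thresholds under any alternative run (0 to 0 with a ram left out). The F test and limma called no window or cytosine anywhere in the data, and at 20 reads 3 windows and 18 cytosines could be tested, so that these say little about the windows. At an unadjusted p under 0.05 there were 2 windows by the chi-square test (0 to 6 with a ram left out), 0 by the F test, 2 by limma and 15 without overdispersion. Of these 15, 11 had q under 0.01, as did 7637 of all windows in that fit. For the alternatives, the share of all windows or cytosines at an unadjusted p under 0.05 was not counted. The chi-square test called no cytosine, with 57 at an unadjusted p under 0.05, against 6 by the F test and 101 by limma. Without overdispersion 2 were called, against 5905 of all cytosines. They were chr19:61520048 (-28.0 points, q = 0.000252, Ram511 at 36%) and chr21:52944487 (26.05 points, q = 2.22e-08, Ram410 at 41.5%). With a ram left out the count was 0 to 1, the call being chr21:52944409 without Ram444 (-62.1 points, q = 5.84e-07 by the same regression). Of all cytosines, 643 were called in that fit. At chr21:52944401-52944600 the difference of 2.04 points became -0.121 without Ram410 and -2.37 without Ram424, and the range with a ram left out was -2.37 to 6.52. Of 96 fits of the 16 named windows with a ram left out, these 2 reversed the direction and none passed the thresholds. The F test, limma and the fit without overdispersion share the pooled difference and could not reverse it. The mean read ratio to unmethylated dense windows, 0.756, was 0.711 to 0.850 with a ram left out, highest without Ram498. The causes of these shifts were not tested.

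No paired analysis was possible because the replicate numbers, given in accession order, tie no ram of one diet to a ram of the other. Alternatives for embryo expression and annotation were not run, for want of an annotation of this build. Depth limits the levels of single cytosines most in Ram498.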
